A study of Mus musculus with 16 samples.

Results

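The genes described here encode the receptor chains for the type I, II and III interferons, the kinases JAK1 and TYK2, and the suppressors of cytokine signalling SOCS1 and SOCS3. They are Ifnar1, Ifnar2, Ifngr1, Ifngr2, Ifnlr1, Il10rb, Jak1, Tyk2, Socs1 and Socs3. They were chosen by name, with earlier results of these data known. The Ensembl identifiers of all 10 were present among the 49585 genes of the raw count table. All 10 passed the filter on low counts, together with 17741 genes in all.

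Libraries of total RNA came from the epidermis of hairless SKH-1 mice aged 8 to 12 weeks, separated from the skin by heat shock. There were 4 groups of 4 libraries. Knockout UVB and control UVB epidermis was taken 6 h after a dose of 100 mJ/cm2 of ultraviolet B, and knockout unexposed and control unexposed epidermis came from mice that were not irradiated. Knockout mice lacked C/EBPβ, a leucine zipper transcription factor, in the epidermis only, and control mice carried the K5Cre transgene, a Cre recombinase under the keratin 5 promoter of basal keratinocytes. The labels do not say whether the knockout mice also carried K5Cre, and they do not give the sex of the mice or state that each library came from a separate animal. The p-values therefore measure the spread between these libraries.

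Each interferon binds a receptor of 2 different chains. IFNAR1 and IFNAR2 bind the type I interferons, IFNGR1 and IFNGR2 bind interferon-γ, and IFNLR1 with IL10RB binds the type III interferons, which act mainly on epithelia such as the epidermis. The receptor tails carry JAK1, TYK2 or JAK2, which phosphorylate STAT proteins, and the activated STATs enter the nucleus and switch on target genes. Socs1 and Socs3 are such targets, and their proteins bind the kinases and receptors and shut the signal off.

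The promoters of both suppressors are shown because they are the members that rose most with UVB in either genotype, and because each holds a motif through which STAT complexes are known to bind DNA. The windows are the 250 bases before the RefSeq start in build GRCm38.p6, written 5′ to 3′ on the gene's strand. Socs1 lies at chr16:10785537-10785786, minus strand, where the capitals mark 2 overlapping matches of the interferon-stimulated response element core GAAANNGAAA. Socs3 lies at chr11:117969367-117969616, minus strand, where the capitals mark a match of the gamma-activated site TTCNNNGAA.
Socs1: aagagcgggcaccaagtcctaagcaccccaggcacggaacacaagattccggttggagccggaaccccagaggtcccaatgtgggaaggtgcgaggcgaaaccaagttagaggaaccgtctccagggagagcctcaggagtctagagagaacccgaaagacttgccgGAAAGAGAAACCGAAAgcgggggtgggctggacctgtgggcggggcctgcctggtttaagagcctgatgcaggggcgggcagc
Socs3: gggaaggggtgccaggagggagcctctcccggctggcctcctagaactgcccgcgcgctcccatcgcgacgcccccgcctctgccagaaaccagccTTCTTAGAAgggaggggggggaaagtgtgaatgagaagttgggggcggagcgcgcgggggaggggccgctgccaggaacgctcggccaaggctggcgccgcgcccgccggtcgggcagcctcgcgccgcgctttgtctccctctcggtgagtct

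In the Socs1 window the matches run from base -83 to base -74 and from base -77 to base -68 before the start, and in the Socs3 window the match runs from base -154 to base -146. The RefSeq start of Socs3 lies 180 bases upstream of the start of its protein-coding transcript in GENCODE M21, so the bases next to that start are not in the window. The whole Socs3 gene spans bases 117966079 to 117970047 there, so the window lies inside it, downstream of its outermost annotated start. Both strands of the same window were searched in 9 of the members and in 32851 mouse promoters. The response element core was found in 1 of the 9 members, against 2.98% of all promoters, and the gamma-activated site in 2 of the 9, Socs3 and Ifnar2, against 7.02%. The C/EBP motif TTGCNNAA was found in 0 of the 9 members, against 9.56% of all promoters. A match describes the letters only.

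The libraries held 32983160 to 53255160 counts each, and the members had between 41 and 8879 counts in a library. Levels are given as CPM, the counts of a gene relative to the size of its library, with library sizes scaled for composition by the trimmed mean of M-values (TMM). Cebpb, the deleted gene, averaged 1.93 ± 1.07 CPM in knockout UVB and 0.574 ± 0.297 CPM in knockout unexposed libraries, against 291 ± 28.6 CPM in control UVB and 166 ± 13.7 CPM in control unexposed libraries (SD, n = 4 each). Keratinocyte markers (Krt5, Krt14, Krt1, Krt10, Trp63, Dsg1a and Dsc3) summed to at least 15100 CPM in every library, and fibroblast markers to at most 10 CPM. By the edgeR test given below, 1 of the 7 keratinocyte markers was higher in knockouts in each exposure and 0 were lower. Of all genes, 4.68% changed between genotypes after UVB and 2.10% without exposure. Langerhans cell markers (7 genes) summed to 636 to 803 CPM in knockout UVB, against 319 to 492 CPM in control UVB libraries, and to 374 to 700 CPM in knockout unexposed, against 210 to 444 CPM in control unexposed libraries. T cell markers summed to 32.97 to 81.2 CPM in knockout unexposed, against 83.6 to 101 CPM in control unexposed libraries. After UVB their sums overlapped, at 43.5 to 94.3 CPM in knockouts and 60.8 to 81.6 CPM in controls. By the same test 0 of the 7 T cell markers changed between genotypes in either exposure. Neutrophil and monocyte markers summed to 26.5 to 37.4 CPM in knockout unexposed, against 13.4 to 20.4 CPM in control unexposed libraries, and to 23.8 to 46.3 CPM in control UVB libraries. Most of that sum was Cxcr2 alone, with 727 to 1790 counts in unexposed knockouts against 329 to 628 in unexposed controls. Over all libraries Itgam had 0 counts and Ly6g had 4, so the sum does not describe these cells as a set. In unexposed libraries fibroblast markers summed to 2.06 to 7.79 CPM in knockouts, against 0.683 to 1.24 CPM in controls. Endothelial markers summed there to 2.64 to 4.28 CPM in knockouts, against 1.03 to 2.54 CPM in controls, and adipocyte markers to 1.91 to 4.23 CPM in knockouts, against 5.56 to 19 CPM in controls. The adipocyte sum was mostly Fabp4, with 117 to 222 counts in unexposed knockouts and 198 to 1044 in unexposed controls. Adipoq had 1 count in all libraries together. In bulk epidermis, fewer cells of a type and less RNA per cell cannot be told apart. At equal depth, 19207 to 21538 genes were detected in knockout UVB libraries and 16987 to 19318 in control UVB libraries. Mitochondrial genes held 5.44 to 5.99% of the counts in knockout UVB libraries, against 8.57, 5.24, 9.59 and 9.65% in control UVB libraries. Library 4 of the knockout unexposed group stood apart within its group, with 10.2% mitochondrial counts and 18810 genes detected at equal depth. Leaving it out ended 0 of the 7 calls of members with UVB in knockouts that are given below. The gene Gm42418 held 7.52% of the counts in that library, 7.93% in control unexposed library 2 and 6.64% in control UVB library 4. In the other libraries Gm42418 held 0.653 to 4.08%. Several of the marker sums, the genes detected and the mitochondrial shares move with the groups compared below. Their part in the results, and that of Gm42418, was not tested.

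UVB moved most of the members and the genotype moved none past the test. In knockout epidermis 7 of the 10 members changed 6 h after UVB, with Ifnar1, Socs1 and Socs3 higher and Ifnlr1, Il10rb, Jak1 and Tyk2 lower. In control epidermis 8 of 10 changed, with Ifngr1, Socs1 and Socs3 higher and Ifngr2, Ifnlr1, Il10rb, Jak1 and Tyk2 lower. A gene was said to change where edgeR's quasi-likelihood test gave a Benjamini-Hochberg adjusted p under 0.05 over all 17741 genes. By the same rule 32.2% of all genes tested changed in knockouts, 18.1% upward and 14.1% downward. In controls 35.8% changed, 17.7% upward and 18.0% downward. The median log2 fold change of the 10 members was -0.13 in knockouts and -0.24 in controls, beside 0.01 and -0.02 over all genes tested. Exposed and unexposed libraries did not overlap for 3 members that were higher and 4 that were lower in knockouts, beside 19.7% and 16.1% of all genes, and for 2 that were higher and 4 that were lower in controls, beside 16.3% and 17.5%.

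Between genotypes, 0 of the 10 members passed either after UVB or without exposure. Over all genes 4.68% passed after UVB and 2.10% without exposure. At an unadjusted p under 0.05, 4 members lay past the threshold after UVB and 2 without exposure, beside 3595 and 2208 of the 17741 genes, and limma-voom also called 0 in both. DESeq2 called Ifngr1 and Ifngr2 after UVB and Socs3 without exposure, as given with each gene. The median log2 fold change of the members was -0.24 after UVB and 0.00 without exposure, beside 0.04 and 0.00 over all genes.

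**Figure D1:**
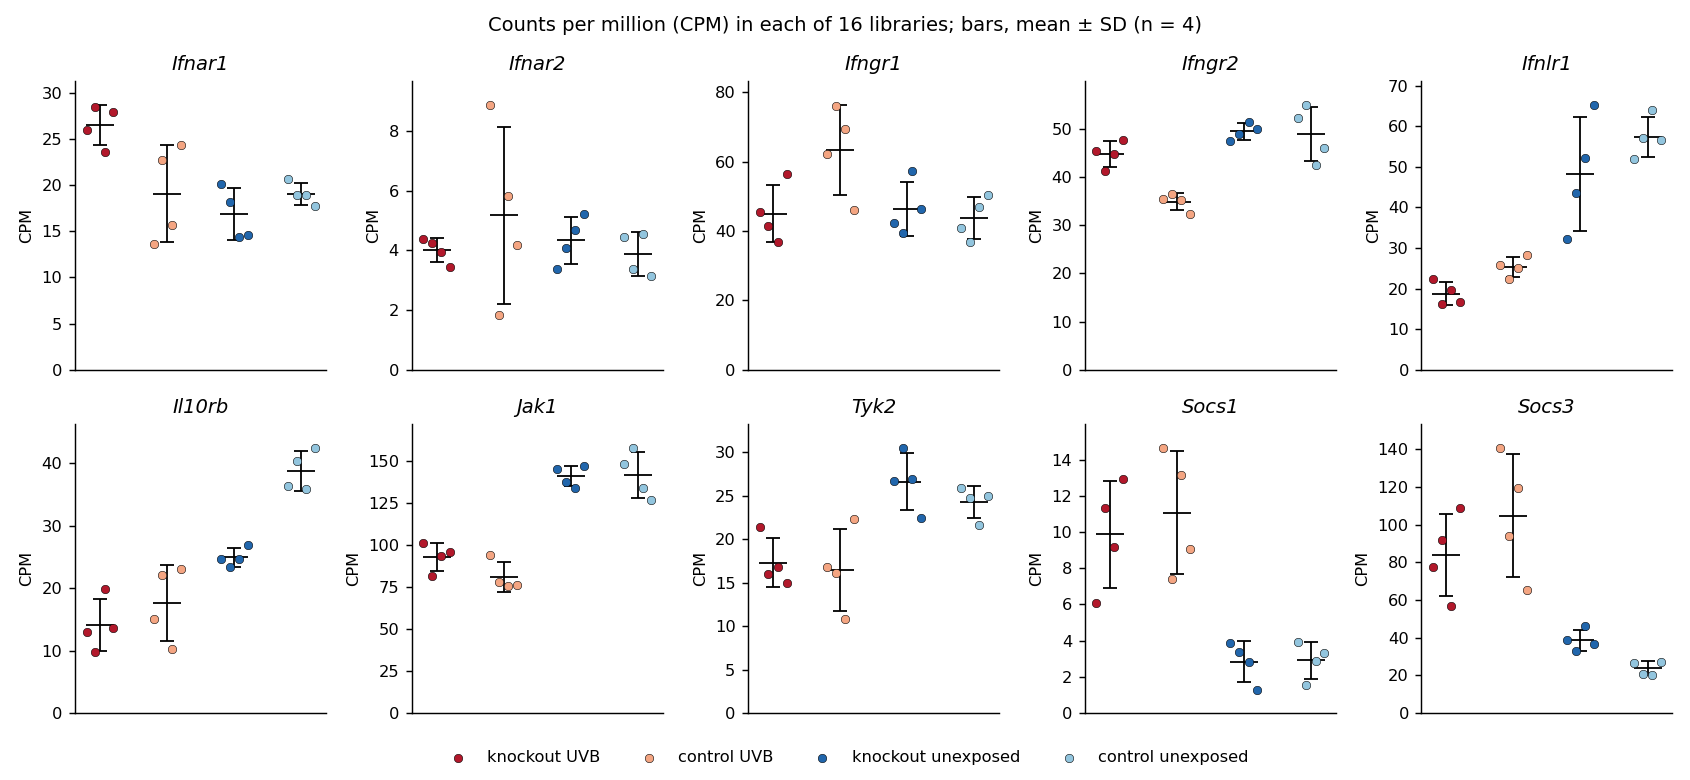
Level of each of the 10 genes in CPM (vertical axes, from 0) in the 16 libraries, coloured by group, with the group mean ± SD (n = 4) as bars. Socs1 and Socs3 lie higher, and Ifnlr1, Il10rb and Jak1 lower, in every UVB library than in any unexposed library of the same genotype.

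Ifnar1 encodes the type I chain that carries TYK2. It had 26.0, 28.4, 23.6 and 27.9 CPM in knockout UVB libraries, against 13.6, 22.7, 15.7 and 24.3 CPM in control UVB libraries. Without exposure it had 20.1, 18.2, 14.4 and 14.6 CPM in knockouts, against 20.7, 19.0, 18.9 and 17.8 CPM in controls. All 4 knockout UVB libraries lay above all 4 knockout unexposed libraries, while the exposed controls fell into a low and a high pair that spanned the unexposed controls. In knockouts Ifnar1 rose 1.57-fold after UVB (log2 fold change 0.65, SE 0.18, edgeR adjusted p = 0.00679). In controls its mean was 19.1 CPM both after UVB and without exposure (edgeR adjusted p = 0.999, SE of the log2 fold change 0.18). Exposed knockouts lay above exposed controls by 0.47 on the log2 scale, which missed the threshold (SE 0.18, edgeR adjusted p = 0.128), and the groups overlapped.

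Ifnar2, whose product carries JAK1, was the lowest receptor chain and showed no change that passed in any comparison. After UVB it had 4.37, 4.24, 3.94 and 3.46 CPM in knockouts, against 8.87, 1.83, 5.82 and 4.17 CPM in controls. In unexposed libraries it had 3.36, 4.09, 4.67 and 5.22 CPM in knockouts, against 4.45, 3.39, 4.55 and 3.13 CPM in controls. The exposed controls spread over a wider range than the other 3 groups together. The log2 fold change after UVB was -0.11 in knockouts and 0.41 in controls, each with an SE of 0.35 (edgeR adjusted p = 0.86 and 0.397). Its gene begins the cluster of 4 receptor genes on chromosome 16. On the same strand 315 bases of its exons, 9.5% of them, are shared with Gm21970, which drew 4 counts in all libraries together. How reads in the shared bases were counted was not examined, so those 4 counts do not show how many reads lay there.

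Ifngr1 encodes the ligand-binding chain of the interferon-γ receptor, which carries JAK1. In UVB libraries it stood at 45.4, 41.6, 36.8 and 56.4 CPM in knockouts, against 62.3, 76.1, 69.4 and 45.95 CPM in controls. Unexposed libraries held 42.4, 39.5, 57.3 and 46.4 CPM in knockouts, against 40.95, 37.0, 47.0 and 50.4 CPM in controls. Libraries 1 to 3 of the exposed controls were the 3 highest of all 16, and library 4 lay among the remaining groups. Ifngr1 rose 1.45-fold with UVB in controls (log2 fold change 0.53, SE 0.17, edgeR adjusted p = 0.0171). That call was lost without control UVB library 2 (0.37, edgeR adjusted p = 0.109) and without control unexposed library 2 (0.46, adjusted p = 0.0673). In knockouts the log2 fold change with UVB was -0.04 (SE 0.17, edgeR adjusted p = 0.89). After UVB the knockout level lay 0.49 below the control level on the log2 scale, and edgeR's adjusted p of 0.0939 missed the threshold (SE 0.17). DESeq2 gave an adjusted p of 0.0487 for that difference, and edgeR gave 0.0318 with control UVB library 4 left out (log2 fold change -0.64).

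Ifngr2, the chain that carries JAK2, moved the other way in controls. It had 45.3, 41.3, 44.8 and 47.8 CPM in knockout UVB libraries, against 35.4, 36.5, 35.2 and 32.4 CPM in control UVB libraries. The unexposed values were 47.4, 48.9, 51.5 and 50.02 CPM in knockouts, against 52.2, 55.0, 42.5 and 46.0 CPM in controls. The 4 exposed controls were the 4 lowest of all 16 libraries and overlapped with no other group. Ifngr2 fell 1.40-fold in controls after UVB (log2 fold change -0.49, SE 0.11, edgeR adjusted p = 0.00188), while the change in knockouts did not pass (-0.14, SE 0.11, edgeR adjusted p = 0.389). Between exposed genotypes the log2 fold change was 0.36, knockout over control, with an edgeR adjusted p of 0.0699 (SE 0.11) and a DESeq2 adjusted p of 0.0322. Groups that do not overlap, with knockouts higher, were found for 6.47% of all genes in that comparison, and with knockouts lower for 4.84%. In unexposed libraries the log2 fold change of Ifngr2 between genotypes was 0.02 (SE 0.11, edgeR adjusted p = 0.992).

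Set against each other, the 2 chains of the interferon-γ receptor gave a ratio that stood apart in the exposed controls. The ratio of Ifngr1 to Ifngr2 CPM ran between 0.821 and 1.18 in knockout UVB libraries and between 1.42 and 2.09 in control UVB libraries. It ran between 0.808 and 1.12 in knockout unexposed and between 0.672 and 1.11 in control unexposed libraries. Each exposed control therefore had a higher ratio than any of the other 12 libraries. No such separation was seen for Ifnar1 over Ifnar2, at 5.95 to 8.08 in knockout UVB and 1.53 to 12.4 in control UVB libraries, or for Ifnlr1 over Il10rb, at 0.989 to 1.73 and 1.01 to 2.45 in the same groups. These ratios recombine the values of single genes, compare libraries and were not tested. How many gene pairs separate in this way was not counted. By edgeR neither Ifngr1 nor Ifngr2 passed between exposed genotypes or in the interaction.

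Ifnlr1, the chain specific to type III interferons, fell most among the members. It had 22.5, 16.2, 19.6 and 16.7 CPM in knockout UVB libraries, against 25.9, 22.3, 25.0 and 28.3 CPM in control UVB libraries. Before UVB the values were 32.2, 43.4, 52.1 and 65.2 CPM in knockouts and 51.9, 57.0, 63.9 and 56.5 CPM in controls. Every exposed library lay below every unexposed library, in either genotype, and the unexposed knockouts spread the widest. Ifnlr1 fell 2.57-fold in knockouts (log2 fold change -1.36, SE 0.18, edgeR adjusted p = 6.35e-06) and 2.26-fold in controls (log2 fold change -1.17, SE 0.17, edgeR adjusted p = 2.26e-05). The genotype difference passed neither after UVB (-0.44, SE 0.17, edgeR adjusted p = 0.154) nor without exposure (-0.25, SE 0.17, edgeR adjusted p = 0.656), and the groups overlapped in both.

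Il10rb encodes the partner of IFNLR1, which carries TYK2 and also serves the receptors for IL-10 and IL-22. It had 12.98, 9.84, 19.8 and 13.7 CPM in knockout UVB libraries, against 14.995, 22.1, 10.2 and 23.0 CPM in control UVB libraries. Unexposed knockouts had 24.6, 23.4, 24.7 and 26.9 CPM, against 36.4, 40.3, 35.9 and 42.5 CPM in unexposed controls. The 4 unexposed knockouts lay close together and below all 4 unexposed controls, and in both genotypes all exposed libraries lay below the unexposed ones. With UVB, Il10rb fell 1.77-fold in knockouts (log2 fold change -0.82, SE 0.22, edgeR adjusted p = 0.00574) and 2.20-fold in controls (log2 fold change -1.14, SE 0.22, edgeR adjusted p = 0.000344). Between unexposed genotypes the log2 fold change was -0.64 (SE 0.22), with an unadjusted p of 0.00792 and an edgeR adjusted p of 0.156, so the difference did not pass. With only the unexposed libraries in the fit, edgeR's adjusted p was 0.0135. Separated groups were found in that comparison for 5.36% of all genes with knockouts lower, as for Il10rb, and for 4.64% with knockouts higher, as for Socs3. Exons of Il10rb share 569 bases, 14.9% of them, with Gm21970 on the same strand, and how reads there were counted was not examined.

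The genes of Ifnar2, Il10rb, Ifnar1 and Ifngr2 lie side by side on the plus strand of chromosome 16 in GENCODE M21 (GRCm38), within 193 kb between bases 91372783 and 91565623. Ifnar2 ends 574 bases before Il10rb begins. These neighbours did not move as a block with UVB. In knockouts Ifnar1 was higher and Il10rb lower, in controls Il10rb and Ifngr2 were lower, and Ifnar2 did not pass in either genotype.

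Jak1, the kinase shared by all 3 interferon receptors and by many cytokine receptors, had the highest counts of the members without exposure. It had 101, 81.4, 93.3 and 95.9 CPM in knockout UVB libraries, against 94.2, 77.7, 75.6 and 76.0 CPM in control UVB libraries. Unexposed libraries had 145, 137, 134 and 147 CPM in knockouts, against 148, 157, 134 and 127 CPM in controls. All 8 exposed libraries lay below all 8 unexposed ones. Jak1 fell 1.52-fold in knockouts (log2 fold change -0.60, SE 0.11, edgeR adjusted p = 0.000276) and 1.75-fold in controls (log2 fold change -0.81, SE 0.11, edgeR adjusted p = 1.05e-05). The exposed genotypes differed by 0.20 on the log2 scale (SE 0.11, edgeR adjusted p = 0.33), and the unexposed ones by -0.01 (SE 0.11, edgeR adjusted p = 0.997).

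Tyk2, the kinase of the type I and type III receptors, also fell with UVB. It stood at 21.4, 15.985, 16.8 and 14.998 CPM in knockout UVB libraries, against 16.8, 16.1, 10.8 and 22.3 CPM in control UVB libraries. Its unexposed values were 26.7, 30.5, 26.9 and 22.4 CPM in knockouts, against 25.9, 24.8, 21.6 and 24.9 CPM in controls. In knockouts the exposed and unexposed libraries did not overlap, and in controls exposed library 4 lay above unexposed library 3. The fall was 1.54-fold in knockouts (log2 fold change -0.62, SE 0.18, edgeR adjusted p = 0.0115) and 1.48-fold in controls (-0.56, SE 0.18, edgeR adjusted p = 0.0209). The control call was lost without control UVB library 3 (-0.41, edgeR adjusted p = 0.0695) and without control unexposed library 1 (-0.53, adjusted p = 0.0505). Between genotypes its log2 fold change was 0.07 after UVB and 0.13 without exposure, each with an SE of 0.18 (edgeR adjusted p = 0.889 and 0.914). An antisense gene, 1700084C06Rik, shares 554 bases or 8.1% of the Tyk2 exons and drew 1836 counts over all libraries; the library kit keeps the strand, but whether counting used it is not stated.

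Socs1, the suppressor that binds the JAK kinases and restrains interferon-γ signalling above all, rose in both genotypes. It had 6.06, 11.3, 9.18 and 12.9 CPM in knockout UVB libraries, against 14.6, 7.41, 13.2 and 9.04 CPM in control UVB libraries. Without exposure it had 3.87, 3.36, 2.84 and 1.28 CPM in knockouts, against 3.90, 1.55, 2.85 and 3.31 CPM in controls. Every exposed library lay above every unexposed one, and within each exposure the genotypes overlapped. The rise was 3.46-fold in knockouts (log2 fold change 1.79, SE 0.35, edgeR adjusted p = 0.000435) and 3.80-fold in controls (log2 fold change 1.93, SE 0.35, edgeR adjusted p = 0.000204). Between genotypes the log2 fold change was -0.16 after UVB and -0.03 without exposure, each with an SE of 0.34 (edgeR adjusted p = 0.851 and 0.996). Its promoter window is the one with the overlapping response element cores.

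Socs3, which binds gp130 and restrains the IL-6 family of cytokines, was the member with the largest rise in controls. After UVB it had 77.8, 92.1, 57.0 and 109 CPM in knockouts, against 141, 94.0, 119 and 65.6 CPM in controls. Unexposed knockouts had 38.9, 32.9, 46.0 and 36.9 CPM, against 26.7, 20.6, 20.4 and 27.4 CPM in unexposed controls. All exposed libraries lay above all unexposed ones, and the unexposed knockouts all lay above the unexposed controls, whereas the exposed groups overlapped. Socs3 rose 2.17-fold with UVB in knockouts (log2 fold change 1.12, SE 0.21, edgeR adjusted p = 0.000294) and 4.41-fold in controls (log2 fold change 2.14, SE 0.22, edgeR adjusted p = 2.47e-07). In unexposed epidermis the log2 fold change of knockout over control was 0.70 (SE 0.21), with an unadjusted p of 0.00304 and an edgeR adjusted p of 0.092, which missed the threshold. DESeq2 gave an adjusted p of 0.036 for it, edgeR gave 0.0175 with only the unexposed libraries in the fit, and limma-voom gave 0.162. After UVB the knockout mean lay below the control mean, at a log2 fold change of -0.32 (SE 0.21, edgeR adjusted p = 0.408).

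**Figure D2:**
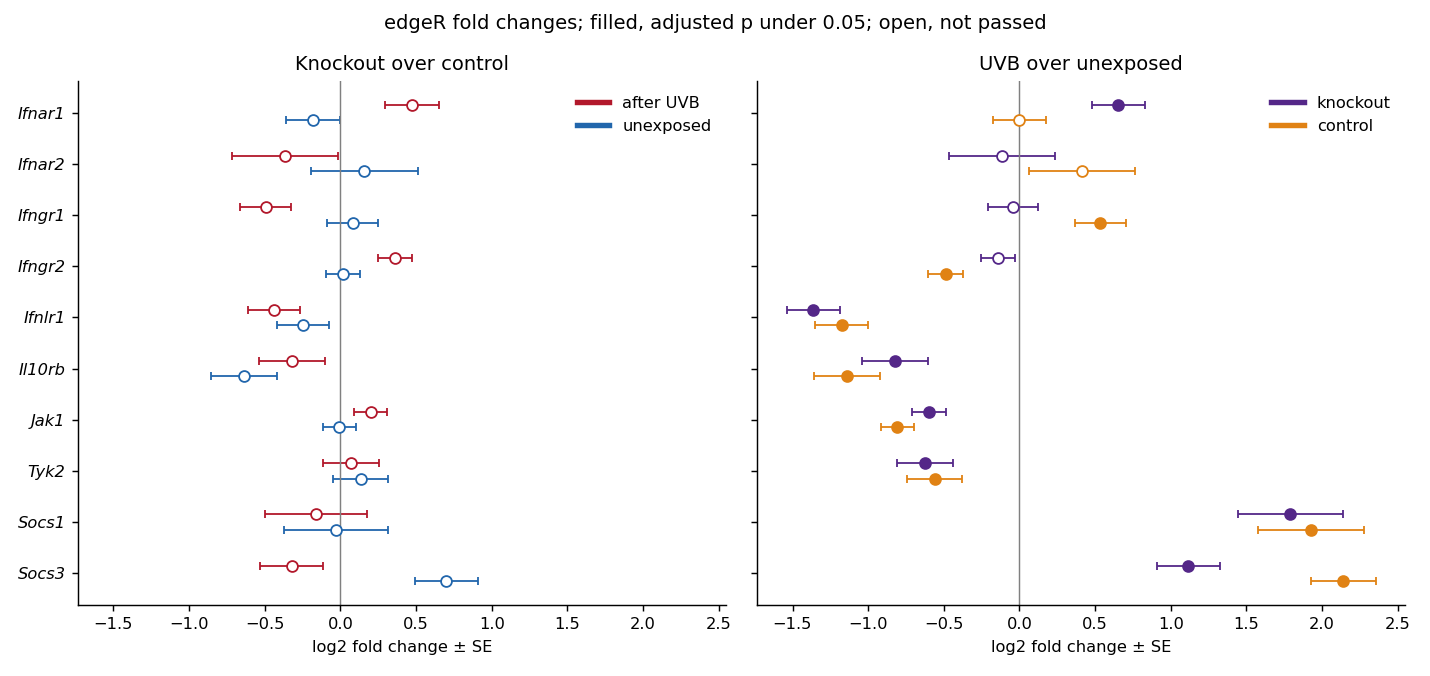
Log2 fold changes ± SE (horizontal axes) of the 10 genes, knockout over control on the left and UVB over unexposed on the right, with filled points at an edgeR adjusted p under 0.05. All points on the left are open, and on the right 7 of 10 are filled for knockouts and 8 of 10 for controls.

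The difference between the UVB responses of the genotypes was tested as an interaction, knockout minus control. Socs3 had the largest value, -1.02 on the log2 scale (SE 0.29), or a response 2.03-fold smaller in knockouts, with an unadjusted p of 0.00226. Its adjusted p over all genes was 0.571 by edgeR and 0.134 by DESeq2, so it did not pass. Ifnar1 differed by 0.65 (SE 0.25, unadjusted p = 0.0164, edgeR adjusted p = 0.783), Ifngr1 by -0.58 (SE 0.24, 0.0246 and 0.797) and Ifngr2 by 0.35 (SE 0.16, 0.0423 and 0.835). Those 4 of the 10 members lay under an unadjusted p of 0.05 and 0 passed after adjustment, beside 1043 and 0 of all genes (percent called 0) by edgeR, 52 called by DESeq2 and 0 by limma-voom. The changes of Ifnar1, Ifngr1 and Ifngr2 that passed in one genotype and not in the other are thus not shown to differ between genotypes.

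Across the 10 members the responses of the genotypes, which share no library, had the same sign in 7, with a Pearson r of 0.909 across genes. Over all genes tested the same sign was seen in 79.7%, with an r of 0.633. Genes are not independent replicates, and these values describe the libraries. The response was larger in size in knockouts for 3 of the 10 members, which were Ifnar1, Ifnlr1 and Tyk2.

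**Figure D3:**
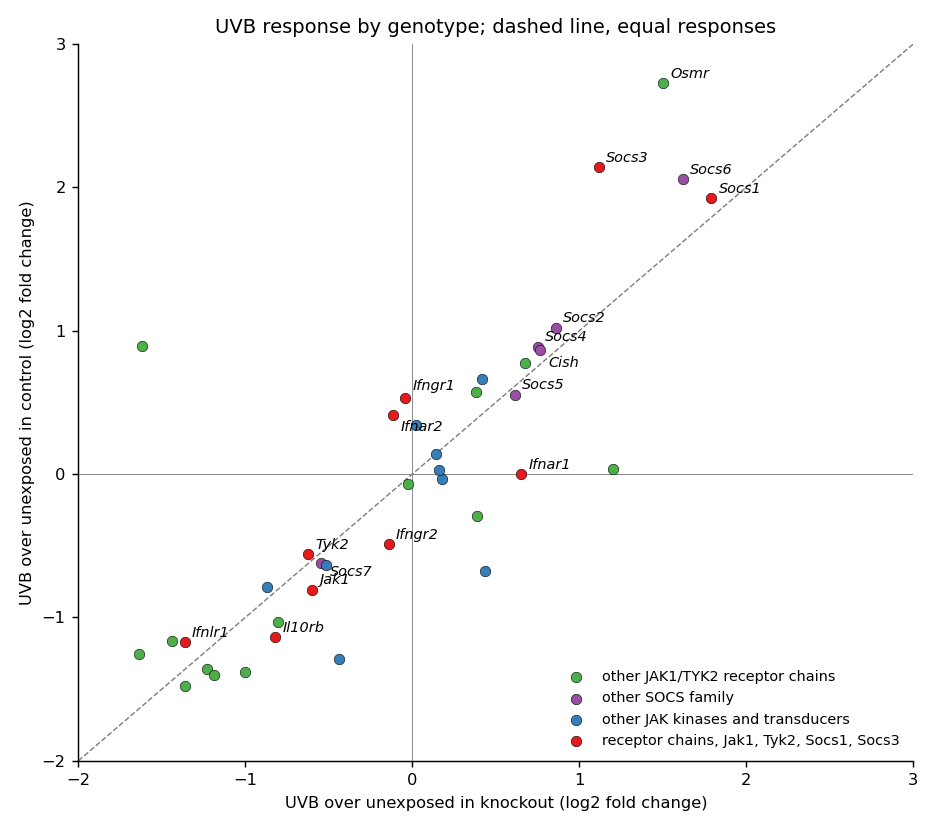
Log2 fold change with UVB in knockout (horizontal axis) against control (vertical axis) for the 10 members in red and for other genes of the pathway in further colours, with a dashed line of equal responses. Socs3, at 1.12 in knockouts and 2.14 in controls, and Osmr, at 1.501 and 2.73, lie above the line.

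Levels can be compared between genes only per length, here as CPM per kb of the exons of a gene in GENCODE M21. After UVB Socs3 was first, at 29.0 ± 7.58 CPM per kb in knockouts and 36.3 ± 11.2 in controls, with the lower libraries of each overlapping Ifngr1 at 15.8 ± 2.93 and 22.3 ± 4.55. Jak1 was the third, at 12.8 in knockouts, where it overlapped with Ifngr1 and Ifngr2, and 11.2 in controls, where it stood apart from both. Ifnlr1 stood at 4.48 CPM per kb in knockouts and 6.07 in controls, and Socs1 at 3.40 and 3.80. Ifnar2 was last, at 1.20 and 1.55 CPM per kb.

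In unexposed epidermis Jak1 stood first, at 19.5 ± 0.832 CPM per kb in knockouts and 19.6 ± 1.91 in controls (SD, n = 4), followed by Ifngr1 at 16.3 ± 2.74 and 15.4 ± 2.12, whose libraries overlapped with those of Jak1. Socs3, Ifngr2, Ifnlr1 and Il10rb came next, between 6.54 and 13.4 CPM per kb in knockouts and between 8.23 and 13.7 in controls. Tyk2 and Ifnar1 followed, at 3.88 and 2.83 in knockouts and 3.54 and 3.21 in controls, and overlapped in each genotype. Ifnar2 and Socs1 closed the order, at 1.30 and 0.976 in knockouts and 1.17 and 0.999 in controls, and did not differ beyond their spread. With the longest transcript in place of all exons the levels rose by up to 1.52 times, and ranks changed in 3 of the 4 groups.

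**Figure D4:**
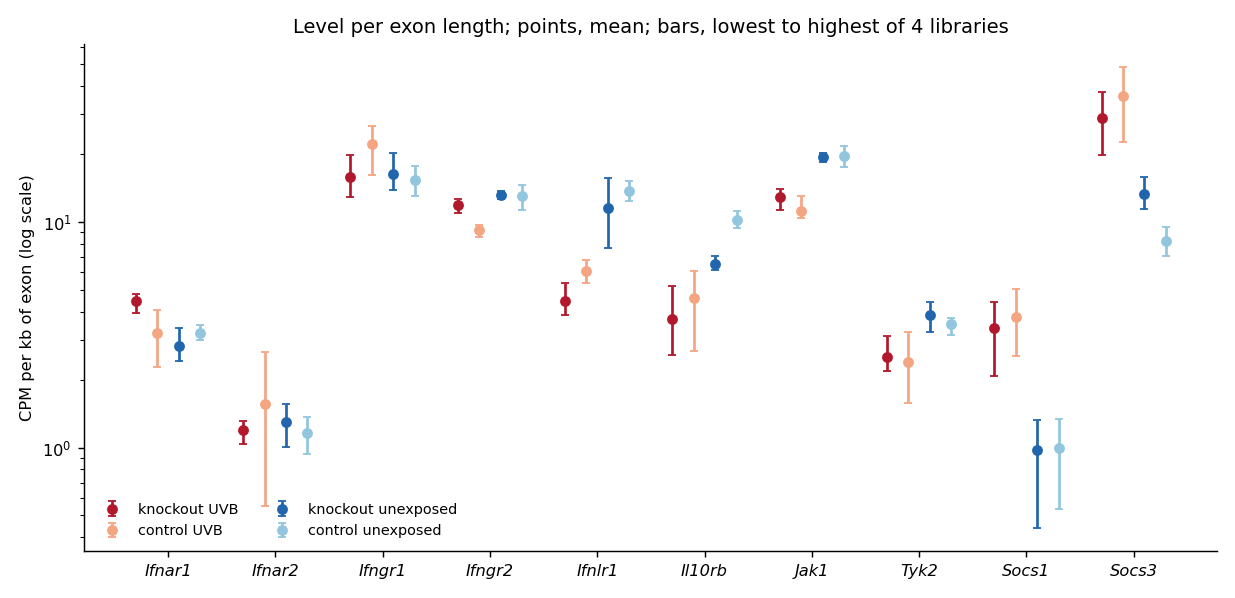
CPM per kb of exon on a log scale (vertical axis) for each gene, with points at the group mean and bars from the lowest to the highest of 4 libraries. Socs3 leads after UVB, at 29.0 in knockouts and 36.3 in controls, and Jak1 leads without exposure, at 19.5 and 19.6.

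The genes whose levels followed each member most closely over the 16 libraries were taken by the Pearson r of log2 CPM among 13192 genes. Because most members differ between exposed and unexposed libraries, the r mainly ranks genes with the same UVB difference, and it is given as a description. For Socs3 they were Rrp12, Eif3j2 and Utp4 (r = 0.968, 0.963 and 0.961), and for Socs1 they were Commd3, Nepro and Ptp4a1 (r = 0.965, 0.96 and 0.956). For Ifnlr1 they were Agfg2, Gm960 and Mtm1 (r = 0.984, 0.983 and 0.982). Those of Jak1 were Abcc5, Cd109 and Skint4 (r = 0.964, 0.961 and 0.96). Among the members with a called change, Ifngr1 had the weakest match, with Stk19 at 0.788, Ereg at 0.782 and Tmem43 at 0.782.

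The ligands of these receptors were hardly counted. Of 23 genes for interferons, Il10 and Il22, only Il10 passed the filter, and it changed in 0 comparisons. Ifnb1, the first type I interferon made by many cells, had 16 counts in library 3 of the knockout UVB group, 20 counts in library 1 of the knockout unexposed group and 0 in the other 14 libraries. Ifnk, the keratinocyte interferon, had 0 counts in all libraries. A count of 0 allows up to 3 counts, or 0.0489 to 0.104 CPM depending on the library, by counting error only. Reads lost in mapping or in counting are not covered by this floor and were not examined. The cytokine receptor chain Il2rg also had 0 counts in all libraries, while the T cell marker Cd3g had 10625 over all libraries.

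Among the other SOCS genes the genotype changed 0 of 6, beside 4.68% of all genes after UVB and 2.10% without exposure. UVB changed all 6 in both genotypes, beside 32.2% of all genes in knockouts and 35.8% in controls. Of the 6, 5 were higher and Socs7 was lower. The median log2 fold change of the 6 with UVB was 0.76 in knockouts and 0.88 in controls. Socs6, a suppressor that acts on receptor tyrosine kinases, rose most. It had 71.9, 82.3, 72.9 and 123 CPM in knockout UVB and 98.8, 123, 96.3 and 66.9 CPM in control UVB libraries. Unexposed libraries had 32.1, 23.4, 28.0 and 30.3 CPM in knockouts and 19.9, 24.0, 23.8 and 24.7 CPM in controls, all below the exposed ones. The log2 fold change of Socs6 was 1.62 in knockouts (SE 0.19, edgeR adjusted p = 1.72e-06) and 2.06 in controls (SE 0.19, edgeR adjusted p = 8.08e-08). Cish, Socs4 and Socs2 rose by 0.76, 0.75 and 0.86 in knockouts and by 0.86, 0.89 and 1.02 in controls on the log2 scale, and Socs5 by 0.62 and 0.55 (edgeR adjusted p at most 0.00658). Socs7 fell by 0.55 in knockouts and by 0.62 in controls (edgeR adjusted p = 0.0146 and 0.00588), and the call in knockouts was lost on leaving out knockout UVB library 3.

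Another 14 tested genes encode chains of receptors that signal through JAK1 or TYK2, though not every chain carries one of these kinases itself. UVB raised 2 and lowered 7 of them in knockouts, beside 18.1% and 14.1% of all genes tested. In controls it raised 3 and lowered 7, beside 17.7% and 18.0%. The median log2 fold change of the 14 with UVB was -0.90 in knockouts and -0.66 in controls. Osmr, the oncostatin M receptor chain that pairs with gp130, was raised most. It had 85.6, 114, 114 and 146 CPM in knockout UVB and 194, 176, 189 and 139 CPM in control UVB libraries. Unexposed knockouts had 42.4, 40.0, 35.6 and 44.6 CPM and unexposed controls 24.9, 25.5, 28.9 and 26.2 CPM. Unexposed knockouts all lay above unexposed controls, as they did for Socs3, and the exposed groups overlapped. The log2 fold change with UVB was 1.501 in knockouts (SE 0.15, edgeR adjusted p = 3.3e-07) and 2.73 in controls (SE 0.15, edgeR adjusted p = 3.52e-10), and the interaction of -1.22 did not pass by edgeR (SE 0.20, adjusted p = 0.114) or limma-voom (adjusted p = 0.148) and passed by DESeq2 (adjusted p = 0.000106). Between genotypes Osmr passed after UVB at -0.60 (edgeR adjusted p = 0.0188) and without exposure at 0.62 (edgeR adjusted p = 0.0267). The exposed call was lost on leaving out any of 5 single libraries, with adjusted p up to 0.0724, and the unexposed call on leaving out any of 6, with adjusted p up to 0.0944. The exposed call was also lost with only the 2 groups compared (edgeR adjusted p = 0.0603), and the unexposed call with limma-voom (adjusted p = 0.0541). Il20rb, Il6ra and Il20ra were lowered by 1.00 to 1.64 on the log2 scale in knockouts and by 1.25 to 1.48 in controls. Il11ra1 was called higher in knockouts in both exposures, but it has near-identical copies in the mouse genome and its counts are uncertain. The exposed call of Il11ra1 was lost on leaving out any of 5 single libraries (adjusted p up to 0.0807), and the unexposed call without knockout unexposed library 1 (1.48, adjusted p = 0.051). With limma-voom the exposed call of Il11ra1 was also lost (adjusted p = 0.131).

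Among the transducers, Stat2, which acts with IRF9 in the complex that binds the response element, was higher in knockouts by 1.10 after UVB (SE 0.19, edgeR adjusted p = 0.00218) and by 0.99 without exposure (SE 0.19, edgeR adjusted p = 0.00786). Irf9 was higher by 0.77 after UVB (edgeR adjusted p = 0.0108) and by 0.64 without exposure (edgeR adjusted p = 0.0492). The unexposed call of Irf9 was lost on leaving out any of 7 of the 8 libraries, with adjusted p up to 0.161. UVB raised Stat3, the transducer of the IL-6 family, by 0.41 in knockouts (edgeR adjusted p = 0.00965) and by 0.66 in controls (edgeR adjusted p = 0.000168). The knockout call of Stat3 was lost without knockout UVB library 4 (0.26, adjusted p = 0.118) and with only the 2 groups compared (edgeR adjusted p = 0.0552). UVB lowered Stat5b and Stat2 in both genotypes. The fall of Stat2 was lost in knockouts on leaving out any of 5 single libraries (adjusted p up to 0.148) and in controls without control unexposed library 3 (-0.54, adjusted p = 0.0559). With only the 2 groups compared the fall of Stat2 in knockouts was also lost (edgeR adjusted p = 0.056).

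Of 13 other negative regulators, the genotype changed only Usp18, whose product binds IFNAR2 and blocks type I signalling. It was higher in knockouts by 2.66 on the log2 scale after UVB (SE 0.42, edgeR adjusted p = 0.00151) and by 1.87 without exposure (SE 0.41, edgeR adjusted p = 0.0226). Leaving out any of 5 single libraries ended the unexposed call, with adjusted p up to 0.11. That call was also lost with no filter on low counts (edgeR adjusted p = 0.0569). UVB raised Ptpn11 and lowered Cblb in knockouts, and in controls it raised Ptpn2, Ptpn11 and Pias4 and lowered Ptpn6, Cblb and Ptprc. Of 16 interferon response genes the genotype raised 9 after UVB, with a median log2 fold change of 3.10, and Mx1 and Oasl1 without exposure, with a median of 2.04, and UVB changed 0 in knockouts and lowered Cmpk2 and Rsad2 in controls. Over all genes the genotype changed 4.68% after UVB and 2.10% without exposure, and UVB changed 32.2% in knockouts and 35.8% in controls. The 16 interferon response genes were listed with earlier results of these data known, so their counts and medians only describe the list. Under the other settings the count raised by genotype ran between 3, with only the 2 groups compared, and 12 after UVB, and between 1 and 7 without exposure. With only the 2 groups compared the exposed calls of Ifit1 (edgeR adjusted p = 0.0967) and Ifi44 (edgeR adjusted p = 0.0738) were lost, and the Rsad2 call with UVB in controls was lost with limma-voom (adjusted p = 0.124) and with only the 2 groups compared (edgeR adjusted p = 0.0722). With limma-voom the exposed call of Ifi44 was also lost (adjusted p = 0.0692). The unexposed call of Oasl1 was lost on leaving out any of 6 single libraries, with adjusted p up to 0.121. It was also lost with limma-voom (adjusted p = 0.112) and with no filter on low counts (edgeR adjusted p = 0.0705). At an unadjusted p under 0.05, 1 of the 16 lay past the threshold with UVB in knockouts, beside 7067 of the 17741 genes. Among 5 tested cytokines that induce SOCS3, Il24 was higher in knockouts by 2.29 after UVB (SE 0.63, edgeR adjusted p = 0.0396) and by 4.44 without exposure (SE 0.84, edgeR adjusted p = 0.00636). Il24 had 1.49, 0.531, 0.322 and 0.187 CPM in knockout unexposed libraries, against 0, 0, 0 and 0.0910 CPM in control unexposed libraries, so the unexposed value depends on the prior count, and the exposed call was lost on leaving out any 1 of the 8 exposed libraries, with adjusted p up to 0.122. The unexposed call of Il24 was lost with limma-voom (4.66, adjusted p = 0.0836). With UVB, Il24 was higher in knockouts (3.44, SE 0.66, edgeR adjusted p = 0.000382) and in controls (5.59, SE 0.85, edgeR adjusted p = 2.76e-05). The size in controls rests on the same unexposed controls near 0, so it also depends on the prior count. It ran from 5.21 to 8.99 on leaving out a library. Il11 was also higher with UVB in controls (0.86, edgeR adjusted p = 0.0374). That call was lost on leaving out any of 6 single libraries, with edgeR adjusted p up to 0.126. The Il11 call was also lost with no filter on low counts (edgeR adjusted p = 0.128) and with only the 2 groups compared (edgeR adjusted p = 0.0954).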

How the data were processed

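Total RNA from epidermis was made into libraries with a directional kit, per the labels' protocols. The authors deposited raw counts per gene for 16 libraries; FastQC, STAR, HTSeq and DESeq2 are named in the submitters' processing notes, and the genome build is not given in the sources used here. Library columns were matched to groups by title, with 4 libraries a group and 0 unmatched columns. From the counts, edgeR 4.0.16 in R 4.3.3 was used with filterByExpr, TMM scaling and robust quasi-likelihood F tests (two-sided) in one fit of the 4 groups, with Benjamini-Hochberg adjustment over 17741 genes. CPM used the TMM library sizes and no prior count; likeness used log2 CPM with a prior count of 2 and genes of mean CPM at least 1. The fit was tested on simulated data with known changes. Of 100 changes of 2-fold, edgeR recovered 47 between genotypes after UVB, 44 without exposure and 22 in the interaction. The changes were placed in genes picked at random among those of mean CPM at least 1, so the recovery is an average over genes. For genes at large, a change of that size that did not pass is therefore not shown to be absent. The recovery for the members was not taken separately, and the SE given with each describes its own spread. Alternatives were DESeq2 1.42.0, limma-voom (limma 3.58.1), 2 other scalings, no filter, only the 2 groups compared, and each library left out. Depth is stated in the results; intervals and floors cover counting error only. The text names all 10 members, up to 4 genes of each other list with the smallest p in a comparison, and any gene called where 5 or fewer were. The members and gene lists were chosen with earlier results of these data known. Positions follow GENCODE M21 and promoters RefSeq; 9 of 10 members matched the promoter table, and Il10rb was not used there. 1 gene of the transducer list is not reported here.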

Additional observations from a re-analysis of the deposited data

Results flagged for a closer look

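Jak1 in library 1 of the control UVB group had 94.18 CPM, against 75.6 to 77.7 CPM in the other 3 libraries of that group. The gap to its nearest neighbour was 0.886 of the range of the group, above Dixon's 95% critical value for 4 samples. It was 1 of 40 sets of a gene and a group that were examined, and chance would give about 2 at 1 in 20. Without this library the fall of Jak1 with UVB in controls was -0.90 on the log2 scale.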

How the results depend on the processing

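No paired analysis was possible because the labels give no replicate numbers shared between groups. The 7 calls of members with UVB in knockouts and the 8 in controls had the same direction and passed in all 6 other settings, and only Ifngr1 and Tyk2 in controls were lost on leaving out a library. Without exposure the genotype called 0 members, against 1 with DESeq2 and 2 with only the 2 groups compared; after UVB it called 0, against 2 with DESeq2 and 0 to 1 on leaving out a library. Over all genes the genotype called 373 without exposure, 798 with DESeq2 and 134 to 435 on leaving out a library, and 830 after UVB, 1654 with DESeq2 and 419 to 1356 on leaving out a library. The interaction called 0 genes, 52 with DESeq2, 2 with no filter and 0 to 2 on leaving out a library. The cause was not tested. Of the unexposed genotype calls 45.8% were higher with TMM and 57.0% with upper-quartile scaling, and no scaling moved the median of all genes by over 0.1. Some members near 0 changed sign without passing. Jak1 between unexposed genotypes was 0.019 with DESeq2, 0.019 with the RLE scaling, 0.028 with upper-quartile scaling, 0.0030 with no filter and 0.020 with only the 2 groups compared. Socs1 in that comparison was 0.041 with limma-voom and 0.0096 with upper-quartile scaling, and Ifnar1 with UVB in controls was 0.0028 with DESeq2 and 0.0036 with the RLE scaling. On leaving out a library, the ranges that crossed 0 were -0.037 to 0.16 for Ifngr1, -0.027 to 0.075 for Ifngr2, -0.057 to 0.047 for Jak1 and -0.24 to 0.23 for Socs1 between unexposed genotypes, -0.63 to 0.015 for Ifnar2, -0.11 to 0.22 for Tyk2 and -0.30 to 0.012 for Socs1 between exposed genotypes, -0.16 to 0.12 for Ifnar1 with UVB in controls, -0.23 to 0.074 for Ifngr1 with UVB in knockouts, and -0.27 to 0.067 for Tyk2 and -0.41 to 0.074 for Socs1 in the interaction. Socs1 and Ifnar2, the members with the fewest counts, had the largest standard errors.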
